A study of Homo sapiens with 6 samples.

Results

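Chloroquine-treated cells labelled as the line MHCC97-H were compared with untreated cells of the same label, with attention to genes outside the sterol, fatty acid, lysosome, autophagy and stress-response lists. The comparison uses the libraries that the labels give as chloroquine (n = 2) or untreated (n = 2), 4 libraries of 6 in all, and the remaining 2 libraries, of cells given 0.2 mM melatonin, enter the fit to estimate the spread. The labels give every library as polyadenylated RNA from this hepatocellular carcinoma line, genotype WT, grown in DMEM with fetal bovine serum. Hepatocyte markers other than CPS1 were at or near 0, so the libraries do not show hepatocyte expression. Whether the labelled origin holds was not tested. The treated cells had 40 µM chloroquine for 16 h and the others no treatment; the labels give no solvent control. Nothing in the labels says that libraries of a group came from separate cultures, so p-values measure only the spread between these libraries. The study names chloroquine as an inhibitor of autophagy.

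Chloroquine is a weak base that gathers in acidic compartments, raises their pH and blocks the fusion of autophagosomes with lysosomes. Lysosomes supply amino acids, cholesterol and iron, and they are a platform for mTORC1, the kinase that couples nutrients to ribosome production. Receptor tyrosine kinases and integrins are turned over there too. Transcripts of growth signalling, translation, energy metabolism, matrix and cell cycle were therefore grouped into 48 lists beside the largest single changes.

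Of 16877 genes tested, 1610 rose and 1803 fell with chloroquine at a Benjamini-Hochberg adjusted p under 0.05 in edgeR's quasi-likelihood test. That is 20.2% of the tested genes, 9.54% risen and 10.7% fallen. Most changes were small: the median absolute log2 fold change of the called genes was 0.27, and 68 rose and 74 fell at least 2-fold. Without chloroquine library 1 and 2, 2249 and 1974 genes were called, and without untreated library 2, 1201 fell. Library totals ran from 15993730 to 23311452 counts over all 6 libraries, and from 16716600 to 20547241 over the 4 compared. A count of 0 allows 3 counts, or 0.123 to 0.184 CPM over the 6, a limit that covers counting error only. CPM are counts scaled to a common library size, here with TMM factors, and values below are given in the order library 1 and library 2.

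The calls followed the base composition of the transcripts. In the lowest of 5 equal groups by GC content (23.1% to 41.0%), 845 genes rose and 62 fell of 3259, and in the highest (57.8% to 74.7%), 41 rose and 896 fell. The log2 fold change fell by 0.136 for each 10% of GC, whereas libraries within a group differed by no more than 0.0185, and rose with transcript length (Spearman's rho 0.167 across genes, which are not independent). Each list is therefore given a second time after offsets that remove every library's trend with GC content and length, under which 858 genes rose (5.08%) and 968 fell (5.74%). Of the 3413 genes called without offsets, 1387 were called in the same direction with them. Whether the trend came from the cells or from library preparation was not tested.

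**Figure D1:**
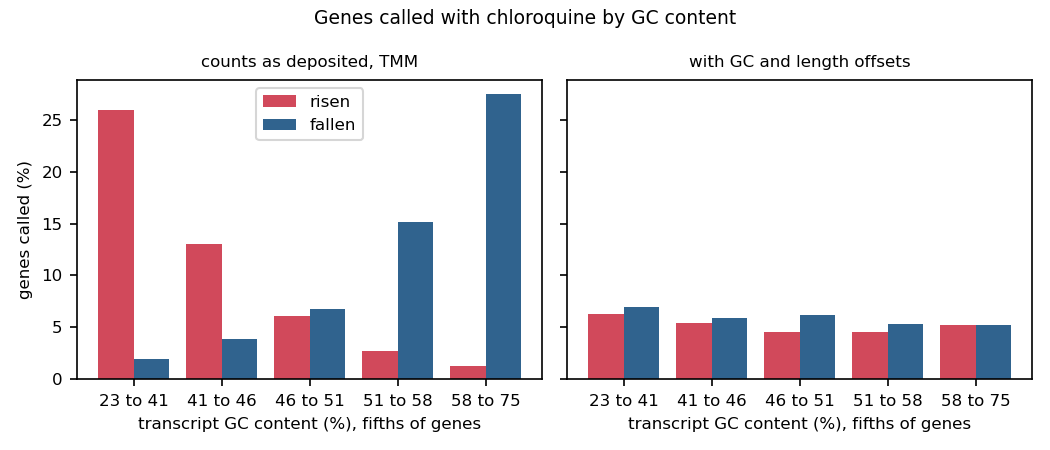
Percent of genes that rose (red) or fell (blue) with chloroquine in 5 equal groups of genes by transcript GC content, from counts scaled by TMM (left) and with offsets for GC content and length (right). Without offsets, 845 genes rose in the lowest group and 896 fell in the highest; with them the bars are nearly level.

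The labelled identity was set beside markers, and most of those of hepatocytes were nearly absent. Marker levels alone cannot decide the origin of a line. Of 28 hepatocyte genes, 26 were under 1 CPM in all 4 libraries and 11 had no count, AFP, APOB and TTR among them, while ALB, albumin, had at most 1 count in a library. The exceptions were HNF4A, at no more than 2.14 CPM, and CPS1, the urea cycle enzyme, at 1361 and 1325 CPM in the untreated libraries and 1186 and 1218 CPM with chloroquine. It fell slightly (log2 fold change -0.16 ± 0.03 (SE), adjusted p = 7.44e-04) and made up nearly all of the list's summed level of 1326 to 1362 CPM untreated and 1186 to 1218 CPM with chloroquine. Of 15 cholangiocyte and progenitor genes, 12 were measured, 1 rose and 6 fell (1 and 3 with offsets), and their sum went from 1467 to 1510 CPM down to 1208 to 1220 CPM. Most of that sum was KRT7, at up to 972 CPM in a library, whose fall was not called with offsets. Fibroblast markers summed to 298 to 306 CPM and 287 to 289.7 CPM, most of it VIM, at up to 271 CPM. Leukocyte markers summed to at most 10.8 CPM in any library. The part of these shifts in the results below was not tested. In bulk RNA, fewer cells of a type and less RNA per cell cannot be told apart.

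Among called genes outside the excluded lists that averaged log2 CPM 2 or more and had groups without overlap, the largest rise was in FBXO32, an E3 ligase adaptor induced by FOXO factors. FBXO32 was at 6.74 and 6.37 CPM in the untreated libraries and 20.5 and 18.3 CPM with chloroquine (log2 fold change 1.57 ± 0.12 (SE), adjusted p = 1.59e-10). SOD2, the mitochondrial superoxide dismutase, was by far the most abundant of the 15 largest rises, at 401 and 379 CPM in the untreated libraries and 839 and 838 CPM with chloroquine (log2 fold change 1.10 ± 0.04 (SE), adjusted p = 6.52e-19). In both genes the chloroquine libraries lay above the untreated ones with no overlap, which held in one direction or the other for 57.6% of all tested genes. Genes said below to lie higher or lower in both chloroquine libraries were picked from called genes. For them the statement describes the values and adds no support to the call. The zinc finger genes ZNF114 (from 10.4 and 10.9 to 22.4 and 23.5 CPM) and ZNF165 (from 3.43 and 3.76 to 7.1 and 7.45 CPM) also rose, with log2 fold changes of 1.11 and 1.01. NR4A3, an immediate early nuclear receptor, rose from 4.6 and 4.26 to 9.34 and 8.85 CPM (log2 1.04). RND3, an atypical small GTPase, rose from 42.1 and 48.8 to 81.4 and 76.4 CPM (log2 0.79). PDP1, the phosphatase that activates pyruvate dehydrogenase, rose from 27.6 and 27.7 to 47.3 and 48.6 CPM (log2 0.79), and SLC16A6, a monocarboxylate transporter family gene, rose from 23.4 and 19.4 to 37.3 and 36.7 CPM (log2 0.80). The remaining genes at this end were DUSP4, CXCL8, PTGS2 and IL6, described below, CYP4V2, a fatty acid hydroxylase (0.89), and the transcripts IGFL1P1 (0.89) and SNAI3-AS1 (0.92). IGFL1P1 is a pseudogene whose reads may belong to its parent, and SNAI3-AS1 is antisense, with the strand setting of the counting not given. The CYP4V2 call was lost without chloroquine library 2.

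At the other end, H19, an imprinted non-coding RNA, had the largest fall under the same limits, but its untreated libraries did not agree. H19 was at 176 and 32.4 CPM in the untreated libraries and 10.7 and 14.9 CPM with chloroquine (log2 fold change -3.01 ± 0.49 (SE), adjusted p = 4.66e-05). The groups did not overlap, and the untreated libraries differed from each other by more than either chloroquine library differed from untreated library 2. The fold change ranged from -3.78 to -1.34 over the alternatives, and DESeq2 did not call it. EIF3CL, a near-identical copy of the initiation factor gene EIF3C, fell from 34.4 and 53.2 to 16.5 and 15.7 CPM (log2 -1.45), while EIF3C was not called (log2 0.08); reads of the copies can be split between them, so neither value is certain. ALPI, intestinal alkaline phosphatase, was at 13.2 and 13.3 CPM in the untreated libraries and 4.32 and 6.31 CPM with chloroquine (log2 fold change -1.32 ± 0.16 (SE), adjusted p = 5.77e-07), and its paralog ALPP fell too (log2 -0.71), with the same reservation.

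Among the remaining falls, the platelet-derived growth factor receptor PDGFRB fell from 9.07 and 9.52 to 4.72 and 4.61 CPM (log2 -0.995) and its ligand gene PDGFB from 10.5 and 7.75 to 3.87 and 5.54 CPM (log2 -0.95). CD82, a tetraspanin known as a metastasis suppressor, fell from 8.89 and 10.3 to 4.92 and 4.92 CPM (log2 -0.97). LY6D, an epithelial surface antigen, fell from 17 and 17.8 to 8.89 and 7.25 CPM (log2 -1.11). In each of these the chloroquine libraries were the lower ones without overlap, as the choice of genes required. Other falls were in TNFSF10, the death ligand TRAIL (-1.08), CHCHD10, a mitochondrial cristae protein (-1.01), KRT81 (-0.98), ARSI, a sulfatase (-0.96), AKR1C1 (-0.90), the homeobox gene MEOX1 (-0.89) and PRRT3 (-0.86). PRRT3 was not called with offsets (adjusted p = 0.0605) or without chloroquine library 1. The other 29 of the 30 genes chosen at both ends were called with offsets in the same direction.

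**Figure D2:**
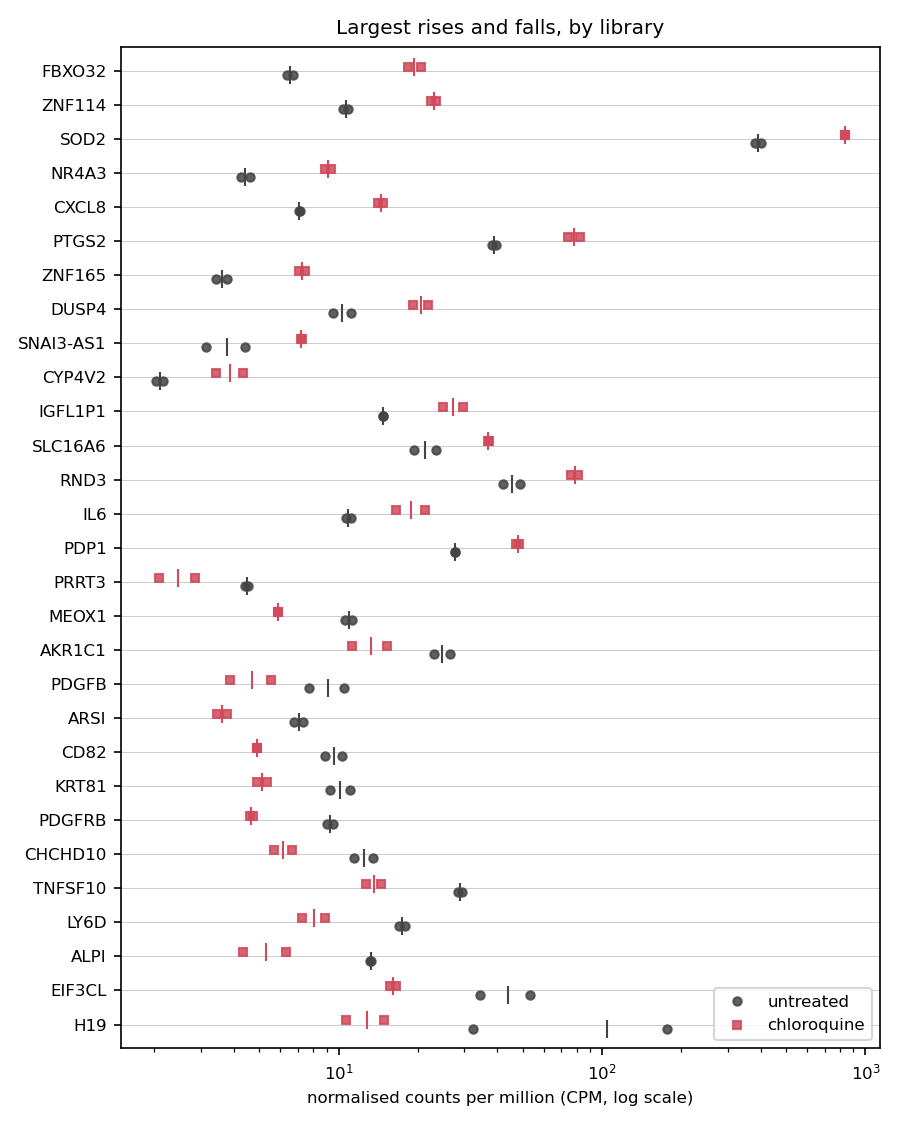
Normalised CPM (log axis) of the genes with the largest rises and falls, untreated libraries as grey circles and chloroquine libraries as red squares, n = 2 each, with vertical ticks at the means. SOD2 is the most abundant gene after treatment at 839 and 838 CPM, and the untreated libraries of H19 lie far apart at 176 and 32.4 CPM.

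Of these 30 genes, 17 had a promoter in the RefSeq table (GRCh38.p14), and 3 of them held the TATA box letters TATAAA on the gene's strand between 40 and 20 bases before the start. These are shown because the match lies where a TATA box, which positions the start of transcription, is found. Capitals mark TATAAA, the AP-1 letters TGACTCA and CCAAT (or its reverse complement).
CXCL8: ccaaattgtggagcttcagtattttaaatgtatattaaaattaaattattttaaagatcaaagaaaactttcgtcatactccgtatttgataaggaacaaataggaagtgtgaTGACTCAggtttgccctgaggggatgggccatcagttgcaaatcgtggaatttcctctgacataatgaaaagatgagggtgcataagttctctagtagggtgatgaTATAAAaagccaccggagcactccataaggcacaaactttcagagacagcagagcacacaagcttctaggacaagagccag
PTGS2: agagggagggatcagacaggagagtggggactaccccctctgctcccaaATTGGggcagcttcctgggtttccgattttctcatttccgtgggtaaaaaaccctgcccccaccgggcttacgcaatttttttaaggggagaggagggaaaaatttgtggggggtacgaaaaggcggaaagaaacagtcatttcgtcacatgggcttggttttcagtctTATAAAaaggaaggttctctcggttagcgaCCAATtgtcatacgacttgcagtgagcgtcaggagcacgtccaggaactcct
TNFSF10: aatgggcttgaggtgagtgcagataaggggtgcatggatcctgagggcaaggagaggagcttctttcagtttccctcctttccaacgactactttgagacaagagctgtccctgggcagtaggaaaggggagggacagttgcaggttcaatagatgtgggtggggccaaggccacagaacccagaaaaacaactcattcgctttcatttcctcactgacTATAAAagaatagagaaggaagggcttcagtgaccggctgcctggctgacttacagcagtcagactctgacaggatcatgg
They lie at chr4:73740319-73740618 on the plus strand (CXCL8), chr1:186680374-186680673 on the minus strand (PTGS2) and chr3:172523381-172523680 on the minus strand (TNFSF10). The TATA box begins 31 bases before the start in CXCL8 and TNFSF10 and 32 bases before it in PTGS2, and the AP-1 match of CXCL8 begins 137 bases before it.

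Over promoters of 11488 tested genes, searched over all 300 bases on both strands and so not only where a TATA box lies, 5.77% held TATAAA. The letters were in 12 of the 104 promoters of genes that rose at least 1.5-fold (11.5%) and in 12 of the 130 of genes that fell as far (9.23%). The AP-1 letters were in 3.33% of all promoters, 6.73% of the risen set and 5.38% of the fallen set. The E-box CACGTG, bound by many basic helix-loop-helix factors, was in 9.95% of all, 15.4% of the risen and 9.23% of the fallen promoters. With the excluded lists left out, the E-box share of the risen set was 14.5% of 76 promoters. The cAMP response element TGACGTCA was in 3.26%, 2.88% and 0.769%, and the GC box GGGCGG in 69.4%, 59.6% and 66.9%. These shares rest on few promoters (16 risen and 12 fallen with an E-box, 7 and 7 with AP-1) and are descriptions of letters, not of binding; the differences between sets were not tested.

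Several feedback genes of the ERK pathway rose, and more genes of their list rose than fell. ERK kinases are switched on by growth factor receptors, and they induce their own brakes, such as the dual-specificity phosphatases (DUSP) and Sprouty proteins, and ETS factors of the ETV4 family. Of 41 measured genes of this list, 16 rose and 5 fell (39.0% and 12.2%), and with offsets 16 rose and 2 fell. The median log2 fold change was 0.17, against -0.003 over all tested genes. DUSP4, a nuclear phosphatase of ERK, was at 9.5 and 11.1 CPM in the untreated libraries and 21.8 and 19.2 CPM with chloroquine (log2 fold change 0.99 ± 0.11 (SE), adjusted p = 1.37e-07). DUSP10, which acts on p38 and JNK, rose from 12.3 and 11.7 to 18 and 19.2 CPM (log2 0.64), and DUSP6, the cytoplasmic ERK phosphatase, from 1.59 and 2.1 to 2.73 and 3.62 CPM (log2 0.77). In all 3 phosphatases both chloroquine libraries were above both untreated ones. Groups did not overlap, in one direction or the other, for 57.6% of all tested genes. The ETS factors ETV1 (0.94), ETV4 (0.36) and ETV5 (0.74) all rose. Of 6 Sprouty and SPRED genes, 3 rose, SPRY4 (1.35), SPRED1 (0.33) and SPRED2 (0.38). SPRY4 was scarce, at 0.674 and 0.553 CPM in the untreated libraries and 1.24 and 1.92 CPM with chloroquine, and its call was lost without untreated library 2 or chloroquine library 2. The same held for DUSP6 without untreated library 1 or chloroquine library 2 and in DESeq2, for ETV1 without library 1 of either group, and for SPRED1 without chloroquine library 1 and with offsets.

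The transcription factors directly downstream mostly did not rise. Of 10 EGR, FOS, JUN and MYC genes, 1 rose and 4 fell, and 1 and 2 with offsets. EGR1 rose from 5.7 and 4.93 to 6.8 and 9.52 CPM (log2 fold change 0.62 ± 0.15 (SE), adjusted p = 0.00436). CCND1, cyclin D1, which is no transcription factor, rose from 78.2 and 76.2 to 97.3 and 90.7 CPM (log2 fold change 0.29 ± 0.05 (SE), adjusted p = 1.42e-04). The AP-1 genes FOSL2 (-0.29), JUN (-0.34) and JUNB (-0.37) fell, as did MYC (-0.24). FOSL2 and MYC were called with offsets and JUN and JUNB were not. EGR1 lost its call without library 2 of either group, and JUN without library 1 of either group. Over all tested genes 9.54% rose and 10.7% fell. Of the EGF receptor family and its ligands, 3 rose and 7 fell of 34 (8.82% and 20.6%), and 2 and 6 with offsets. The receptor gene ERBB2 (-0.33) and the adaptor SHC1 (-0.28) were among those that fell. ERRFI1, an inhibitor of EGF receptor that ERK signalling induces, rose from 141 and 93.4 to 159.6 and 176 CPM (log2 0.52), and DESeq2 did not call it.

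In the list of NF-kB chemokines and cytokines, more genes rose than fell. NF-kB is a transcription factor released by receptor signalling that induces chemokines, cytokines and its own inhibitors. Of 36 measured genes, 12 rose and 4 fell (33.3% and 11.1%), and with offsets 12 rose and 3 fell, with medians of 0.16 and 0.27. Of 8 CXC and CC chemokines, 4 rose and none fell, and 3 and 0 with offsets. CXCL8 was at 7.11 and 7.08 CPM in the untreated libraries and 14.2 and 14.7 CPM with chloroquine (log2 fold change 1.02 ± 0.11 (SE), adjusted p = 5.78e-08) and CXCL2 at 5.39 and 4.98 CPM in the untreated libraries and 9.58 and 7.66 CPM with chloroquine (log2 fold change 0.74 ± 0.14 (SE), adjusted p = 4.50e-04). CCL20, which draws CCR6-positive lymphocytes, had the largest fold change of the list at low abundance, 0.184 and 0.166 CPM in the untreated libraries and 1.04 and 0.828 CPM with chloroquine (log2 fold change 2.38 ± 0.51 (SE), adjusted p = 0.00108). With 3 counts in each untreated library against 21 and 16, the ratio of its summed, scaled counts was 5.37 (exact 95% interval 2.25 to 15.6, counting error only). All 3 chemokines were higher in both chloroquine libraries. CXCL1 rose by 1.01 and lost its call with offsets (adjusted p = 0.0769) or without any 1 of the 4 libraries.

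Among the cytokines and effectors, IL6 rose from 11.2 and 10.6 to 21.2 and 16.5 CPM (log2 0.79), and IL18, an inflammasome substrate, rose from 60.5 and 59.3 to 84 and 83.7 CPM (log2 0.49). PTGS2, the inducible cyclooxygenase, was at 39.5 and 38.1 CPM in the untreated libraries and 82.2 and 74.3 CPM with chloroquine (log2 fold change 1.01 ± 0.06 (SE), adjusted p = 3.96e-13), and the adhesion molecule ICAM1 rose from 51.1 and 49.2 to 70.9 and 68.3 CPM (log2 0.47). NFKBIZ, a nuclear co-regulator of IL6, rose by 0.53 and TNFAIP3, an inhibitor of NF-kB, by 0.22. IL32 fell from 48.6 and 44.6 to 34.8 and 35.4 CPM (log2 -0.41), and TNFAIP2 fell (log2 -0.62). Compared directly with melatonin, CXCL8 was lower with chloroquine (log2 -2.27, adjusted p = 3.07e-19), as was IL6 (log2 -0.95, adjusted p = 2.79e-09), while SOD2 was higher (log2 0.32, adjusted p = 1.14e-08). TNFAIP3 was not called without chloroquine library 1.

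**Figure D3:**
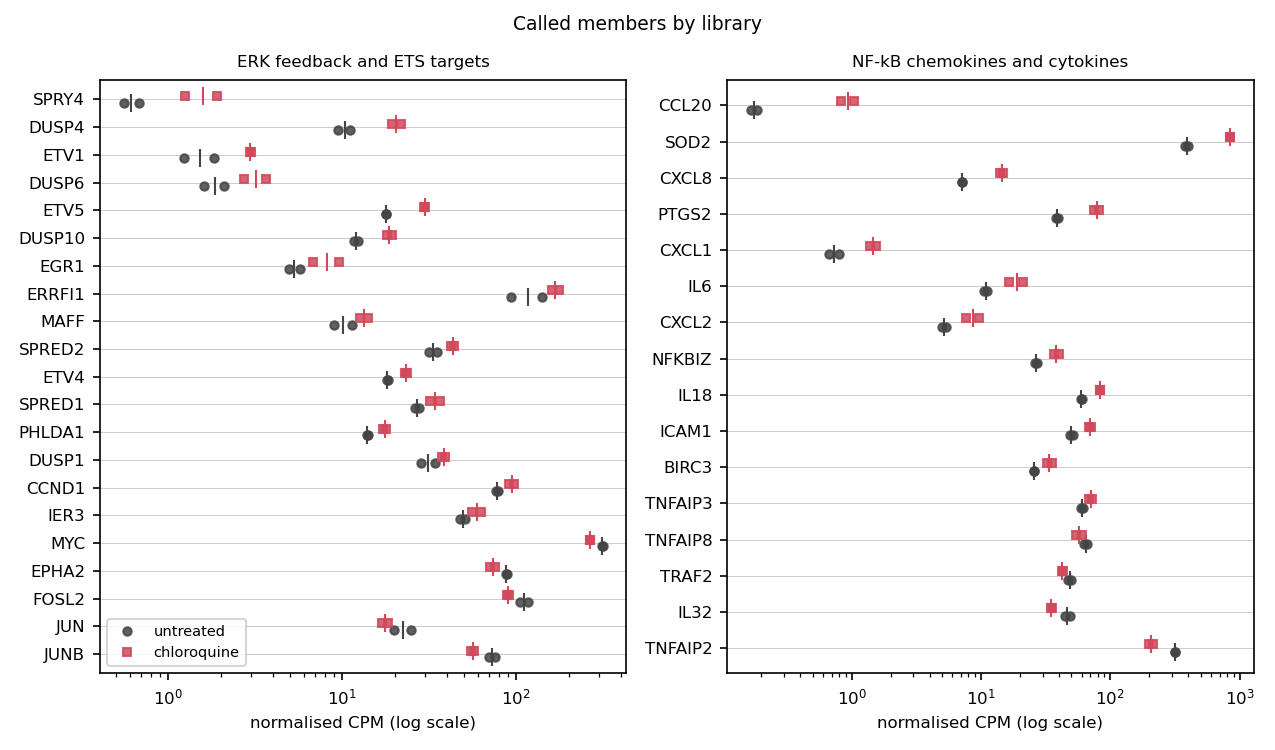
Normalised CPM (log axis) of the called genes of the ERK feedback list (left) and the NF-kB list (right) in each library, untreated in grey and chloroquine in red, n = 2 each, with ticks at the means, ordered by fold change. SPRY4 and CCL20 head the panels at low abundance, while SOD2 goes from about 390 to about 838 CPM.

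Interferon-stimulated and MHC class I genes fell more often than they rose, 11 against 4 of 55 (20% and 7.27%), and 7 against 3 with offsets. All tested genes stood at 10.7% fallen and 9.54% risen, and 5.74% and 5.08% with offsets. The antiviral genes OAS1 (-0.50), IFI44 (-0.36) and IFI44L (-0.60) fell, while IFIT3 (0.47) rose. OAS1 and IFI44 lost their call in DESeq2 and without untreated library 2 or either chloroquine library, IFI44 also without untreated library 1, and IFIT3 without untreated library 2 or chloroquine library 1. The risen genes numbered 2 without any 1 library, and the fallen genes 7, 7 and 6 without untreated library 2, chloroquine library 1 and chloroquine library 2.

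Of the developmental pathways, the Wnt and Notch lists held more fallen than risen genes, and fewer of them were called with offsets. The same went for all tested genes, where 9.54% rose and 10.7% fell, and 5.08% and 5.74% with offsets. In the Wnt list 2 rose and 10 fell of 43, and 3 and 3 with offsets. WNT6, a ligand, was at 2.33 and 1.72 CPM in the untreated libraries and 0.497 and 0.518 CPM with chloroquine (log2 fold change -1.98 ± 0.39 (SE), adjusted p = 4.77e-04). AXIN2, a feedback target of beta-catenin, was at 4.9 and 4.37 CPM in the untreated libraries and 3.03 and 2.38 CPM with chloroquine (log2 fold change -0.77 ± 0.21 (SE), adjusted p = 0.0103), and WNT5A, a ligand of the beta-catenin-independent branch, fell (log2 -0.57). These 3 genes were lower in both chloroquine libraries and were called with offsets. In the Notch list none rose and 6 fell of 31, and only LFNG, a glycosyltransferase that modifies Notch receptors (-0.65), was called with offsets. In the TGF-beta and BMP list 6 rose and 9 fell of 49 (12.2% and 18.4%), and 4 and 8 with offsets. Its risen genes included the ligand BMP2 (0.59), its target ID2 (0.40) and the inhibitor SMAD6 (0.24). Its fallen genes included the TGF-beta target PMEPA1 (-0.44). Of 37 YAP and TEAD genes, 9 rose and 4 fell, and 2 and 5 with offsets. AXIN2 lost its call without untreated library 1 or chloroquine library 2, BMP2 without untreated library 2, and SMAD6 without any 1 of these 3 libraries: untreated 1, untreated 2 and chloroquine 1. Fallen Wnt genes numbered 5 without untreated library 1 and 6 without chloroquine library 2, and fallen Notch genes 3 without chloroquine library 2. Risen TGF-beta and BMP genes numbered 2 or 3 without any 1 library, and risen YAP and TEAD genes 4 without untreated library 2 and 3 without chloroquine library 2.

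Genes of insulin and FOXO signalling moved in both directions. FOXO factors are held in the cytoplasm by AKT and induce catabolic genes when insulin signalling is low. Of 35 measured genes, 9 rose and 7 fell (25.7% and 20%), and 8 and 5 with offsets. The shares over all tested genes were 9.54% and 10.7%, and 5.08% and 5.74% with offsets. Beside FBXO32, the insulin receptor substrate IRS2 rose from 75.8 and 58.2 to 84.1 and 90.2 CPM (log2 fold change 0.38 ± 0.07 (SE), adjusted p = 1.98e-04), whereas IRS1 fell from 7.29 and 9.69 to 6.01 and 4.5 CPM (log2 fold change -0.69 ± 0.17 (SE), adjusted p = 0.00373). PPARGC1A, a co-activator of mitochondrial genes, rose from 4.9 and 5.48 to 8.39 and 8.07 CPM (log2 0.66). SESN3, an inhibitor of mTORC1, rose at low abundance, from 0.184 and 0.111 to 0.546 and 0.776 CPM. Its 3 and 2 counts against 11 and 15 gave a ratio of summed, scaled counts of 4.53 (exact 95% interval 1.71 to 15.1, counting error only). PDK4, a kinase that inhibits pyruvate dehydrogenase, fell (log2 -0.43). TXNIP, the principal target of the glucose sensor MondoA, was not called (log2 fold change 0.11 ± 0.04 (SE), adjusted p = 0.0536). IRS2 was not called by DESeq2, and SESN3 and IRS1 lost their call without untreated library 2 or chloroquine library 2. PDK4 lost its call without any 1 of the 4 libraries, and the fallen genes numbered 3 without chloroquine library 2.

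In the circadian list 8 rose and 2 fell of 26 (30.8% and 7.69%), and 4 and 1 with offsets. All tested genes stood at 9.54% risen and 10.7% fallen, and 5.08% and 5.74% with offsets. The activator BMAL1 fell from 22.9 and 26 to 20.8 and 18 CPM (log2 -0.34), while the repressors NR1D2 (0.55), PER3 (0.45) and BHLHE40 (0.36) rose. BMAL1 was not called by DESeq2 or without library 2 of either group, and the risen genes numbered 4 without untreated library 2 and 5 without chloroquine library 1.

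Many cytosolic ribosomal protein genes fell by small amounts, in both fits. Ribosomal proteins of both subunits are translated from short, abundant mRNAs under mTORC1 control. Of 80 measured genes, 44 fell and 1 rose (55.0% and 1.25%), and 33 and 3 with offsets. The median log2 fold change was only -0.12, with 26 fallen of 48 in the large subunit and 18 of 32 in the small. RPL36 was at 114 and 108 CPM in the untreated libraries and 85.5 and 85.8 CPM with chloroquine (log2 fold change -0.37 ± 0.05 (SE), adjusted p = 8.99e-07) and RPL13 at 581 and 593 CPM in the untreated libraries and 459 and 444 CPM with chloroquine (log2 fold change -0.38 ± 0.03 (SE), adjusted p = 2.91e-09). Both genes were lower in each chloroquine library. RPS26 was the gene that rose, from 319 and 334 to 354 and 351 CPM (log2 0.11), and DESeq2 did not call it. RPL35 changed sign with the correction, at -0.14 without and 0.12 with offsets. Ribosomal protein genes have many processed pseudogenes that can share reads. RPS26 also lost its call without untreated library 1 or either chloroquine library. The fallen genes numbered 29 without chloroquine library 1 and 27 without chloroquine library 2.

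Among factors that build ribosomes, more genes rose than fell, though the majority passed in neither direction. Of 67 measured genes for ribosome biogenesis, 19 rose and 3 fell, and 12 and 0 with offsets. NOP58, a core protein of box C/D snoRNPs, rose from 131 and 141 to 169 and 168 CPM (log2 fold change 0.30 ± 0.05 (SE), adjusted p = 2.40e-05), and NCL, nucleolin, rose from 1142 and 1139 to 1265 and 1271 CPM (log2 fold change 0.15 ± 0.03 (SE), adjusted p = 0.00182). The helicase DDX21 (0.23) and the snoRNP chaperone NOLC1 (0.19) also rose. Among translation factors 11 rose and 11 fell of 51 (21.6% each), and 5 and 8 with offsets. All tested genes stood at 9.54% risen and 10.7% fallen, and 5.08% and 5.74% with offsets. EIF5B, which joins the subunits, rose (log2 0.37), as did EIF5 (0.24) and the release factor ETF1 (0.22). The elongation factor genes EEF1A1 (-0.11) and EEF1B2 (-0.18) fell. EEF1A1 lost its call without either untreated library or chloroquine library 1. Without chloroquine library 1, 12 biogenesis genes and 7 translation factors rose, and the fallen translation factors numbered 6 or 7 without any 1 library.

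Among lists of RNA processing and transcription, the splicing list held more risen genes before the offsets and more fallen ones after them. Of 89 splicing genes, 19 rose and 6 fell, and 6 and 11 with offsets. SRSF1, an SR splicing factor, rose from 305 and 308 to 359 and 365 CPM (log2 0.24) and CWC22, a spliceosome factor that loads the exon junction complex, from 45.7 and 45.9 to 59.1 and 58.7 CPM (log2 0.36); both were called in each fit. Of 8 nuclear-retained RNAs, 4 rose and none fell, and 3 and 0 with offsets. NEAT1, the scaffold of paraspeckles, was at 1134 and 1049 CPM in the untreated libraries and 1447 and 1521 CPM with chloroquine (log2 fold change 0.44 ± 0.04 (SE), adjusted p = 7.83e-09), MALAT1 rose by 0.36 and KCNQ1OT1 by 0.59. Of 44 genes of RNA polymerase II and Mediator, 3 rose and 9 fell, and 1 and 5 with offsets. MED16 fell most (log2 -0.59), with MED25 at -0.43; both are subunits of the Mediator tail. Of 98 chromatin regulators, 13 rose and 13 fell (13.3% each), and 7 and 5 with offsets. Over all tested genes 9.54% rose and 10.7% fell, and 5.08% and 5.74% with offsets. Risen splicing genes numbered 7 without chloroquine library 2 (fallen 1) and fallen ones 2 without untreated library 1. Fallen polymerase and Mediator genes numbered 5 without library 2 of either group. Risen chromatin regulators numbered 7 or 8 without untreated library 2 or either chloroquine library, and fallen ones 4 to 8 without any 1 library.

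No nuclear-encoded gene of oxidative phosphorylation rose. Of 79 measured subunits of the respiratory complexes and ATP synthase, 28 fell (35.4%) and none rose, and 20 and 0 with offsets, at a median of -0.11. The fallen genes were 12 of 38 of complex I, 1 of 4 of complex II, 4 of 9 of complex III, 3 of 11 of complex IV and 8 of 17 of ATP synthase, and with offsets 9, 0, 1, 3 and 7. NDUFS7, a complex I subunit, was at 15.3 and 15.7 CPM in the untreated libraries and 11.3 and 9.89 CPM with chloroquine (log2 fold change -0.55 ± 0.11 (SE), adjusted p = 6.93e-04). ATP5F1B, the catalytic beta subunit of ATP synthase, was at 1269 and 1286 CPM in the untreated libraries and 1107 and 1109 CPM with chloroquine (log2 fold change -0.21 ± 0.03 (SE), adjusted p = 6.94e-05). Both were lower in each chloroquine library. Of the 13 mitochondrially encoded genes 2 fell, MT-CO1 (-0.16) and MT-CO3 (-0.12), and none rose. Mitochondrial reads were 5.01% and 4.80% of the untreated libraries and 4.78% and 4.72% of the chloroquine libraries. Of 75 mitochondrial ribosomal proteins, 2 rose and 11 fell (2.67% and 14.7%), and 0 and 6 with offsets. The shares over all tested genes were 9.54% and 10.7%, and 5.08% and 5.74% with offsets. MT-CO1 lost its call without untreated library 1 or chloroquine library 2 and MT-CO3 without any 1 library, and fallen mitochondrial ribosomal proteins numbered 5 and 4 without chloroquine library 1 and 2.

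Lists of carbon metabolism held more fallen than risen genes. All tested genes stood at 10.7% fallen and 9.54% risen, and 5.74% and 5.08% with offsets. Of 25 measured genes of glycolysis and lactate export, 16 fell and 3 rose, and 9 and 3 with offsets. PFKL, liver phosphofructokinase, fell from 136 and 145 to 100.1 and 104 CPM (log2 -0.46) and GPI from 803 and 789.7 to 648 and 636 CPM (log2 -0.31). The risen genes were PFKFB2, which makes the activator of phosphofructokinase, from 26.9 and 29.1 to 40.6 and 42.1 CPM (log2 fold change 0.56 ± 0.07 (SE), adjusted p = 2.90e-06), the glucose transporter SLC2A3 (0.47) and ALDOC (0.27). In the citric acid cycle list 4 rose and 8 fell of 26, and 1 and 5 with offsets. IDH1, the cytosolic NADP-linked isocitrate dehydrogenase, was the gene that rose in both fits (log2 0.28). Of 38 genes of the pentose phosphate pathway and nucleotide synthesis, 3 rose and 10 fell, and 1 and 3 with offsets. Of 42 genes of peroxisomes and fatty acid oxidation, 2 rose and 10 fell, and 1 and 8 with offsets. ACADS, short-chain acyl-CoA dehydrogenase, fell from 13.4 and 14.1 to 8.94 and 8.75 CPM (log2 -0.64), and PLIN2, which coats lipid droplets, rose from 195 and 152 to 249.6 and 270.2 CPM (log2 0.58). ALDOC lost its call without any 1 library. Fallen citric acid cycle genes numbered 3 or 4 without any 1 library, and fallen genes of peroxisomes and fatty acid oxidation 5 without untreated library 2 or either chloroquine library.

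In the list of targets of the antioxidant factor NRF2, more genes fell than rose. NRF2 induces glutathione enzymes and aldo-keto reductases, and of 31 measured genes 13 fell and 2 rose, and 9 and 1 with offsets, at a median of -0.18. AKR1C1 was at 23 and 26.5 CPM in the untreated libraries and 11.3 and 15.3 CPM with chloroquine (log2 fold change -0.90 ± 0.12 (SE), adjusted p = 2.61e-06) and AKR1C2 at 7.78 and 8.08 CPM in the untreated libraries and 4.52 and 4.4 CPM with chloroquine (log2 fold change -0.83 ± 0.16 (SE), adjusted p = 3.64e-04). AKR1C3 fell as well (log2 -0.71). All 3 were lower in both chloroquine libraries, and these paralogs can share reads. PRDX1, a peroxiredoxin, fell by less (-0.18), and MGST1, a microsomal glutathione transferase, rose (0.23). The list leaves out HMOX1 and PGD, which are counted in other lists and rose in both fits (log2 0.25 and 0.25). Of 24 iron genes, 5 rose and 2 fell, and 4 and 2 with offsets. The transferrin receptor TFRC rose from 757 and 755 to 975 and 954 CPM (log2 0.35) and the haem oxygenase HMOX1 by 0.25, while the ferritin heavy chain FTH1 fell from 1027 and 1086 to 931 and 920.4 CPM (log2 -0.19). Of 21 metallothionein and zinc genes, 1 rose and 2 fell (4.76% and 9.52%, against 9.54% and 10.7% over all tested genes). HMOX1 lost its call without chloroquine library 1 and FTH1 in DESeq2, and risen iron genes numbered 3 without either chloroquine library.

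**Figure D4:**
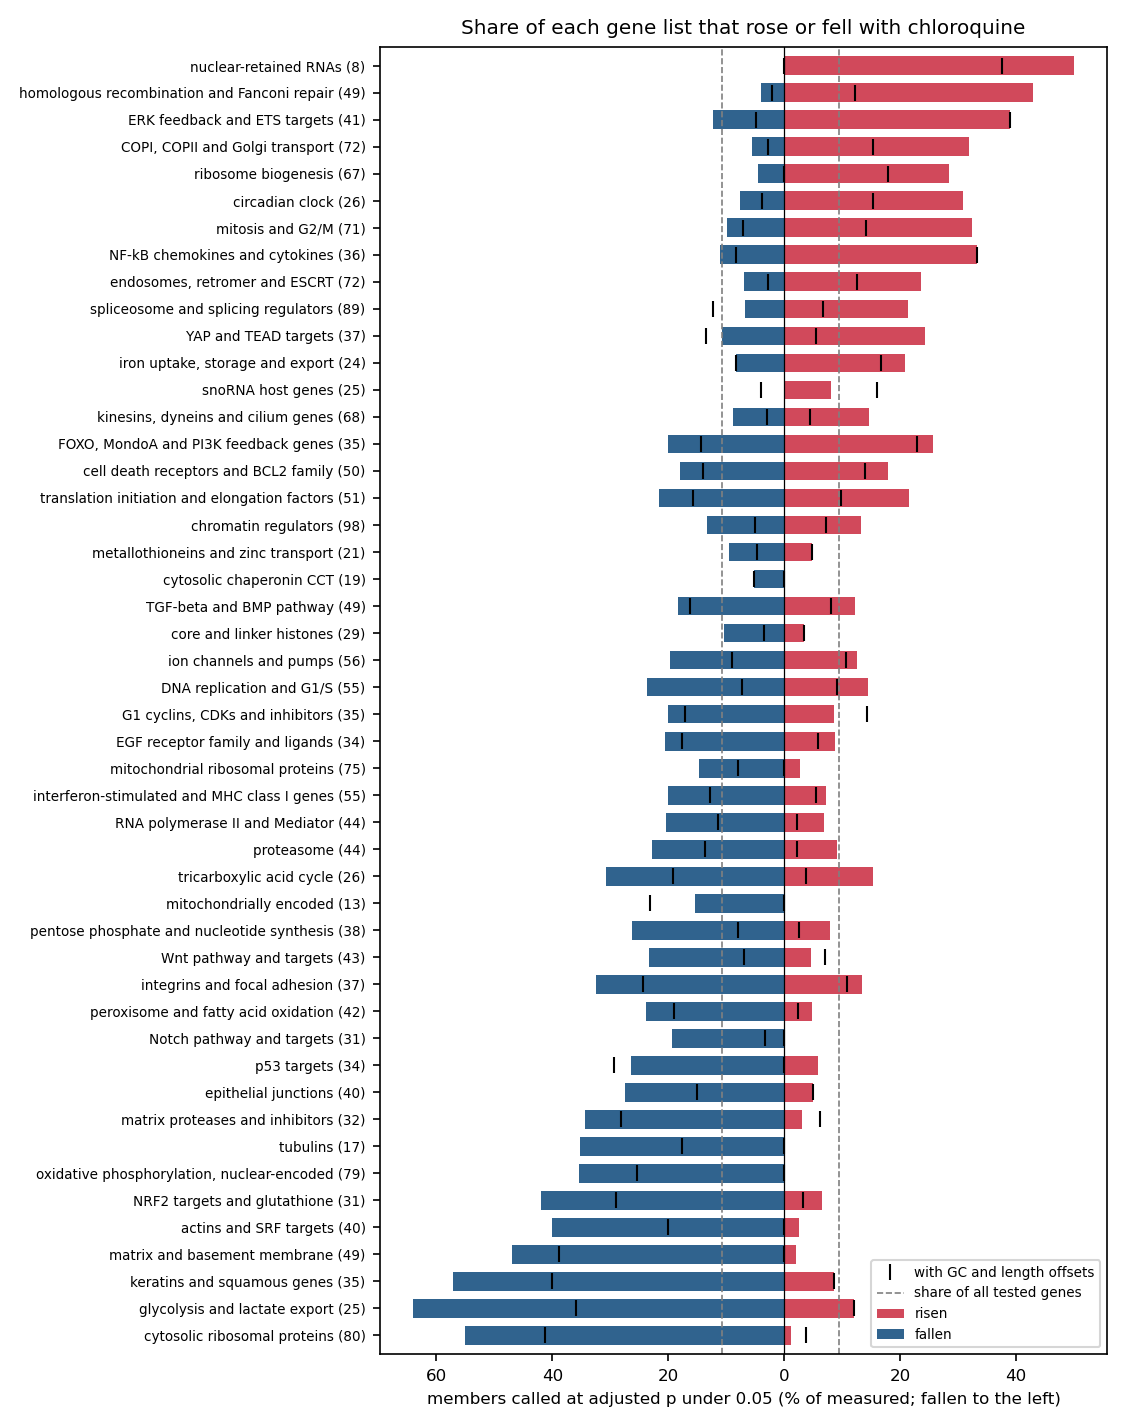
Percent of the measured genes of each of 48 lists that rose (red, right) or fell (blue, left) with chloroquine, black ticks giving the same with offsets for GC content and length, dashed lines the shares over all tested genes (9.54% and 10.7%), and numbers in brackets the genes measured. The risen shares of the ERK feedback and NF-kB lists are equal in both fits, while the ticks of the repair, mitosis and Golgi lists fall well inside their bars. The dashed lines are without offsets and do not apply to the ticks. With offsets the shares over all tested genes were 5.08% risen and 5.74% fallen.

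Nearly all matrix genes that were called fell, basement membrane components included. The basement membrane is a sheet of laminin, type IV collagen, nidogen and perlecan that epithelial cells bind through integrins. Of 49 measured genes, 23 fell and 1 rose, and 19 and 0 with offsets, at a median of -0.18. LAMA5, a laminin alpha chain, was at 262 and 275 CPM in the untreated libraries and 166 and 167 CPM with chloroquine (log2 fold change -0.69 ± 0.04 (SE), adjusted p = 1.17e-13). AGRN, agrin, was at 149 and 149 CPM in the untreated libraries and 108 and 104 CPM with chloroquine (log2 fold change -0.49 ± 0.04 (SE), adjusted p = 8.93e-10) and HSPG2, perlecan, at 96.7 and 105 CPM in the untreated libraries and 74.4 and 72.4 CPM with chloroquine (log2 fold change -0.46 ± 0.05 (SE), adjusted p = 3.83e-07). All 3 were lower in both chloroquine libraries, and AGRN and HSPG2 shrank with offsets to -0.19 and -0.21. Of 16 collagens 8 fell, and 5 with offsets, their median going from -0.16 to -0.07. Of 10 laminins and nidogens 4 fell, among them LAMB2 (-0.51) and LAMB3 (-0.37). COL7A1, the anchoring fibril collagen, lost its fall entirely with offsets (-0.24 without and 0.01 with, adjusted p = 0.904).

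Of 32 matrix proteases and inhibitors, 11 fell and 1 rose, and 9 and 2 with offsets. MMP13, collagenase 3, was at 5.33 and 5.15 CPM in the untreated libraries and 2.68 and 3.05 CPM with chloroquine (log2 fold change -0.87 ± 0.20 (SE), adjusted p = 0.00265). Their inhibitors TIMP3 (-0.50) and TIMP4 (-0.42) fell too, and SERPINE2 (0.36) rose. Of 37 integrin and focal adhesion genes, 12 fell and 5 rose, and 9 and 4 with offsets. ITGB4, the hemidesmosome integrin that binds laminin, fell from 24.9 and 23.7 to 15.9 and 14.4 CPM (log2 -0.68), whereas ITGA2, a collagen receptor subunit, rose from 51.6 and 48 to 63.6 and 64.8 CPM (log2 fold change 0.37 ± 0.05 (SE), adjusted p = 1.30e-05). The caveolae genes CAV1 (-0.47) and CAV2 (-0.34) fell, and CD44, the hyaluronan receptor, rose (0.19). Risen integrin and focal adhesion genes numbered 3 without untreated library 2 and 2 without chloroquine library 2.

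All 11 measured keratins had negative fold changes, and 8 of them fell. Keratins form the intermediate filaments of epithelia, KRT8, KRT18 and KRT19 in simple epithelium and KRT15 and KRT17 in stratified epithelium. In the whole list of keratins and squamous genes 20 of 35 fell and 3 rose (57.1% and 8.57%), and 14 and 3 with offsets, at a median of -0.29. KRT19 was at 8.95 and 8.75 CPM in the untreated libraries and 4.97 and 5.02 CPM with chloroquine (log2 fold change -0.82 ± 0.16 (SE), adjusted p = 3.60e-04) and KRT15 at 10.7 and 9.02 CPM in the untreated libraries and 6.16 and 5.59 CPM with chloroquine (log2 fold change -0.74 ± 0.15 (SE), adjusted p = 5.71e-04). KRT8 (-0.42) and KRT18 (-0.39) fell by less. KRT7 fell without offsets (-0.29) and not with them (-0.07, adjusted p = 0.256). The genes that rose were all serpins of the B family, SERPINB3, a squamous cell antigen, from 4.47 and 4.82 to 7.9 and 8.07 CPM (log2 0.78), its near-identical neighbour SERPINB4, from 5.52 and 5.53 to 9.09 and 8.7 CPM (log2 0.69), and SERPINB8 (0.35). SERPINB5, maspin, fell (-0.53). SERPINB3 was also higher with chloroquine than with melatonin (log2 3.49, adjusted p = 1.0e-12).

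Of 40 junction genes, 11 fell and 2 rose, and 6 and 2 with offsets. The claudin gene CLDN7 fell (log2 -0.78), and the tight junction scaffold TJP3 fell from 6.56 and 5.81 to 4.02 and 2.95 CPM (log2 -0.82). EPCAM, an epithelial adhesion molecule, rose from 9.44 and 8.69 to 13.5 and 11.5 CPM (log2 0.46) and was not called by DESeq2 or without untreated library 2 or chloroquine library 1. TJP3 lost its call without chloroquine library 2, and fallen junction genes numbered 6 without untreated library 2 and 4 without chloroquine library 2. Of 40 actins and targets of serum response factor, 16 fell and 1 rose, and 8 and 0 with offsets, with ACTB at -0.24 and the calponin CNN2 at -0.39. Of 17 tubulins 6 fell and none rose, and 3 and 0 with offsets. Over all tested genes 9.54% rose and 10.7% fell. Of 56 ion channels and pumps, 7 rose and 11 fell (12.5% and 19.6%), and 6 and 5 with offsets. ATP1B1, the beta subunit of the sodium pump, fell furthest of the abundant ones, from 516 and 512 to 284 and 284 CPM (log2 -0.86), while the endosomal chloride transporter CLCN6 (0.59) and the calcium pump ATP2B1 (0.45) rose.

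More p53 targets fell than rose in both fits. The tumour suppressor p53 induces cell cycle brakes and death genes, and of 34 measured targets 9 fell and 2 rose, and 10 and 0 with offsets. PLK2 fell from 48.2 and 42.8 to 33.9 and 33.2 CPM (log2 fold change -0.44 ± 0.07 (SE), adjusted p = 4.97e-05), FDXR, a mitochondrial reductase, fell from 16.4 and 18.9 to 10.3 and 13.5 CPM (log2 fold change -0.57 ± 0.12 (SE), adjusted p = 8.77e-04), and BAX, a pore-forming death effector, fell from 45.1 and 50.8 to 32.3 and 37.8 CPM (log2 fold change -0.45 ± 0.09 (SE), adjusted p = 5.13e-04). The damage recognition gene DDB2 (-0.47) and PHLDA3, an inhibitor of AKT (-0.59), fell too. BAX was not called by DESeq2.

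Cell death genes split, 9 risen and 9 fallen of 50 (18% each), and 7 and 7 with offsets. Among the G1 regulators given last, 8.57% rose and 20% fell. The shares over all tested genes were 9.54% and 10.7%, and 5.08% and 5.74% with offsets. The pro-apoptotic BH3-only gene BMF was at 17.8 and 21.6 CPM in the untreated libraries and 11.5 and 12 CPM with chloroquine (log2 fold change -0.75 ± 0.12 (SE), adjusted p = 5.32e-05), and TNFSF10 at 28.3 and 29.4 CPM in the untreated libraries and 14.5 and 12.7 CPM with chloroquine (log2 fold change -1.08 ± 0.11 (SE), adjusted p = 2.76e-08). Both were lower in each chloroquine library. The inhibitor BCL2 rose from 8.21 and 7.75 to 12 and 10.2 CPM (log2 0.48), and the inflammatory caspases CASP1, from 9.32 and 12.1 to 15.8 and 15.6 CPM (log2 0.55), and CASP4 (0.46) rose. CASP1 lost its call without untreated library 1. BCL2 was not called by DESeq2 or without untreated library 2 or chloroquine library 1. Fallen death genes numbered 5 without chloroquine library 2. Of 35 G1 regulators 3 rose and 7 fell, and 5 and 6 with offsets, with the CDK inhibitor CDKN1C at -0.67; the fallen ones numbered 4 without untreated library 2.

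Lists of mitosis and DNA repair held more risen than fallen genes, and fewer of these were called with offsets. Fewer were called over all tested genes too, 9.54% risen and 10.7% fallen without offsets, and 5.08% and 5.74% with them. Of 71 mitosis genes, 23 rose and 7 fell, and 10 and 5 with offsets. KIF20B, a kinesin of cytokinesis, rose from 111 and 103 to 176 and 178 CPM (log2 fold change 0.72 ± 0.04 (SE), adjusted p = 1.52e-12), CENPE, the kinetochore motor, from 56.1 and 54.9 to 82.6 and 85.7 CPM (log2 fold change 0.60 ± 0.05 (SE), adjusted p = 1.32e-09), and SGO2, which protects centromere cohesion, from 37.8 and 42.4 to 58.1 and 57.6 CPM (log2 fold change 0.53 ± 0.06 (SE), adjusted p = 8.14e-07). With offsets they were at 0.54, 0.43 and 0.35. The fallen genes included KIF20A (-0.29) and the ubiquitin enzyme UBE2C (-0.19). Of 49 genes of homologous recombination and the Fanconi pathway, 21 rose and 2 fell, and 6 and 1 with offsets, and the median went from 0.14 to 0.05. BRCA2 rose from 30.3 and 32.4 to 50.5 and 46.2 CPM (log2 fold change 0.62 ± 0.07 (SE), adjusted p = 3.05e-07) and PALB2, its partner, from 40.6 and 39.5 to 49.6 and 49.9 CPM (log2 fold change 0.31 ± 0.07 (SE), adjusted p = 9.28e-04). RIF1 (0.44) and BRCA1 (0.30) rose in both fits as well. Of 55 replication genes, 8 rose and 13 fell, and 5 and 4 with offsets. Of 68 motor and cilium genes, 10 rose and 6 fell (14.7% and 8.82%), and 3 and 2 with offsets. The ciliary transport gene IFT74 rose from 7.42 and 7.25 to 11.2 and 11.4 CPM (log2 0.62) and the transition zone gene CEP290 from 30.1 and 26.1 to 41.9 and 44.4 CPM (log2 0.62). Risen mitosis genes numbered 12 without untreated library 1 or chloroquine library 2 and 15 without chloroquine library 1, and fallen ones 4 without untreated library 2 or either chloroquine library. Risen repair genes numbered 13 and motor and cilium genes 6 (fallen 3) without chloroquine library 2. Replication genes numbered 3 to 6 fallen without any 1 library and 3 or 4 risen without untreated library 2 or either chloroquine library.

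Lists of membrane transport also held more risen than fallen genes, mostly with small changes. The shares over all tested genes were 9.54% risen and 10.7% fallen, and 5.08% and 5.74% with offsets. Of 72 genes of the COPI and COPII coats and the Golgi, 23 rose and 4 fell (31.9% and 5.56%). With offsets 11 rose and 2 fell. Of 6 golgins, which tether vesicles, 4 rose in both fits, GOLGA4 from 149 and 134 to 231 and 245 CPM (log2 fold change 0.76 ± 0.04 (SE), adjusted p = 7.30e-13), GOLGB1 from 154 and 148 to 207 and 212 CPM (log2 fold change 0.47 ± 0.04 (SE), adjusted p = 5.92e-10), GOLGA3 (0.21) and GOLGA2 (0.14). Of 15 COPII genes 6 rose and none fell, and 3 with offsets. Of 72 genes of endosomes, retromer and ESCRT, 17 rose and 5 fell (23.6% and 6.94%), and 9 and 2 with offsets. That risen share was near the 24.0% of the highest of 5 groups by expression and the 25.9% of the lowest by GC content. EEA1, the tether of early endosomes, rose from 58.5 and 56 to 91 and 94.7 CPM (log2 fold change 0.70 ± 0.05 (SE), adjusted p = 3.21e-11), and the Rab GTPase RAB5A (0.22) and the retromer subunit VPS26A (0.30) rose by less. Of 44 proteasome genes, 4 rose and 10 fell (9.09% and 22.7%), and 1 and 6 with offsets, with PSMB2 at -0.19. Of 19 genes of the chaperonin CCT and its partners none rose and 1, TBCB, fell. GOLGA2 lost its call without library 2 of either group and RAB5A without chloroquine library 1, while TBCB lost it with offsets, in DESeq2 and without untreated library 2 or either chloroquine library. Risen coat and Golgi genes numbered 15 without untreated library 2 or chloroquine library 1 and 13 without chloroquine library 2, and risen endosome genes 11 without either chloroquine library (fallen 2 or 3 without any 1 library). Fallen proteasome genes numbered 4 without untreated library 2 and 6 without either chloroquine library.

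**Figure D5:**
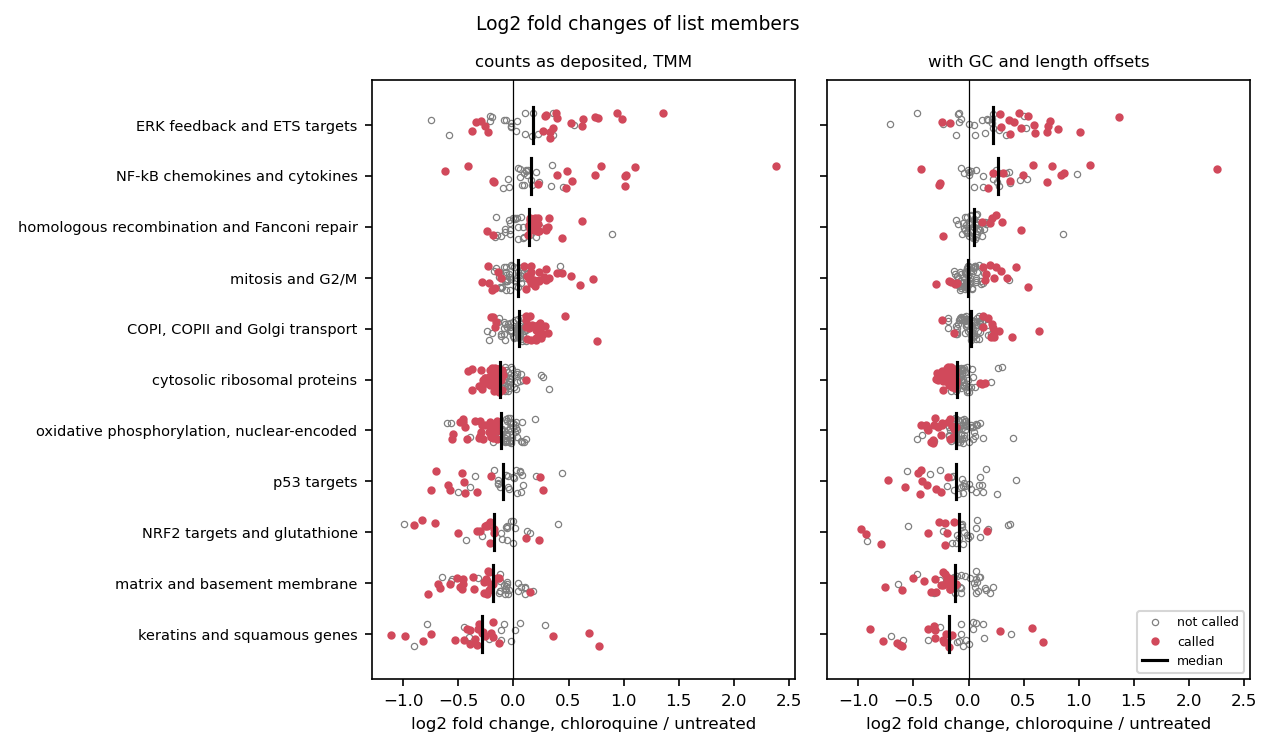
Log2 fold change of each measured gene of 11 lists without (left) and with (right) offsets for GC content and length, called genes in red, genes not called as open grey circles, and the median as a black bar. Medians of the ribosomal protein, oxidative phosphorylation, p53, matrix and keratin lists lie below 0 in both panels, and that of the repair list moves from 0.14 to 0.05.

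Genes were also grouped into families by shared symbols. Many of these families hold genes of the lists above, with the same calls. The families described, 6 at each end, were picked by their risen or fallen share, so they are no separate support for the lists. The shares to set beside them, over all tested genes, were 9.54% risen and 10.7% fallen, and 5.08% and 5.74% with offsets. Among stems with at least 20 tested genes, the highest risen share was in the centrosomal CEP genes. There 14 of 40 rose and 1 fell, and 5 and 1 with offsets. Of the GOLGA genes, 6 of 21 rose and none fell in both fits; many GOLGA genes are near-identical copies that can share reads. The dual-specificity phosphatases rose in 5 and fell in 1 of 22, and 6 and 0 with offsets. The fallen gene was DUSP9 (log2 -0.61), which was not called with offsets (adjusted p = 0.0512). Of 35 kinesins (KIF), 8 rose and 5 fell, and 3 and 4 with offsets. The other high shares were ZC with 7 risen and 1 fallen of 25 (2 and 1 with offsets) and TAF with 5 and 2 of 24 (3 and 0). The highest fallen shares were in RPS with 24 fallen and 3 risen of 66, COL with 8 and 0 of 23, MYO with 6 and 1 of 21, RPL with 28 and 3 of 123, MED with 7 and 2 of 31, and CDC with 7 and 5 of 33. With offsets, 14 RPS genes fell and 2 rose, 5 and 1 of COL, 3 and 0 of MYO, 21 and 1 of RPL, 5 and 0 of MED, and 1 and 1 of CDC. The CDC counts with offsets were below the shares over all tested genes. The RPS and RPL stems include pseudogenes. The 457 ZNF genes, the largest family, held 47 risen and 14 fallen (10.3% and 3.06%), and 17 and 8 with offsets. Their risen share was near that over all tested genes.

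Calls were concentrated in protein-coding genes, where 1504 rose and 1715 fell of 12976, and 778 and 909 with offsets. Of 2475 long non-coding genes, 75 rose and 54 fell (57 and 38 with offsets), and of 751 pseudogenes, 16 rose and 25 fell (12 and 14). In the lowest of 5 groups by expression 28 rose and 39 fell of 3376 (27 and 20 with offsets). In the highest 809 rose and 572 fell of 3376, and with offsets the balance turned, to 358 risen and 447 fallen.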

How the data were processed

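Polyadenylated RNA was sequenced in 6 libraries labelled MHCC97-H (3 groups of 2), prepared with a TruSeq RNA kit per the labels' protocols. The authors deposited a table of raw counts, whole numbers for 62710 Ensembl genes. The submitters' processing notes name fastp and the build GRCh38; the aligner, annotation and strand setting are not given there. GENCODE release 29 placed 58274 genes and gave transcript length and GC content, known for 96.6% of the tested genes.

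The fit used edgeR 4.0.16 under R 4.3.3, with limma 3.58.1 and DESeq2 1.42.0 for alternatives. Genes passing filterByExpr were scaled by TMM factors and fitted with glmQLFit and glmQLFTest on all 6 libraries with 1 term per group. Adjusted p-values are Benjamini-Hochberg over the 16877 tested genes, threshold 0.05. Only the main fit was run on simulated counts, drawn with this fit's own spread and without a trend with GC content. The offsets, list counts and alternatives were not tested that way. Offsets were local regressions (span 0.3) of each library on GC content and length, over 12627 genes with an average log2 CPM above 1. The common biological coefficient of variation was 0.0315. Libraries of a group differed by more than counting error (chi-square per degree of freedom 2.36, 1.83 and 2.66). Lists were counted and not tested as sets. RefSeq promoters run from 250 bases before to 50 after the start.

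Genes at the ends were the 15 highest and 15 lowest fold changes among genes that were called, averaged log2 CPM 2 or more, had groups that do not overlap and stood in no excluded list. To these came up to 4 genes with the smallest p of each list and 3 of each stem described. Some genes that these rules chose are not reported here. Further genes given with values were chosen after their values were seen. The comparison, lists and rules were chosen with earlier results of these data known. The risen promoters outside the excluded lists were a set added after seeing the data.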

Additional observations from a re-analysis of the deposited data

How the results depend on the processing

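Of 3413 calls (1610 risen, 1803 fallen, and 68 and 74 at least 2-fold), DESeq2 made 2025 (963, 1062, and 22 and 7 at least 2-fold). Offsets for GC content and length gave 1826 (858, 968, and 41 fallen at least 2-fold), and the same with the replicate block gave 1865 (881, 984 and 41). A test against a 1.5-fold change left 47 (34, 13, and 22 and 10 at least 2-fold), and a mean count of at least 50 left 26 risen and 15 fallen at least 2-fold. Leaving out 1 library at a time gave 1974 to 2581 calls, 952 to 1203 risen, 1022 to 1378 fallen, and 46 to 69 risen and 41 to 56 fallen at least 2-fold; a lone library is then assumed to vary like the other groups. RLE size factors (3419), library totals only (3457), limma-voom (3345), no count filter (3240) and a fit of only the 4 libraries (3731) stayed within 1.5 times. Replicate numbers did not pair the libraries (correlations of deviations -0.01, -0.01 and 0.00), and with the replicate block 3436 genes were called. The sign turned with offsets in COL7A1 (0.0107, and 0.0105 with the block too) and RPL35 (0.12, with the block too), and without chloroquine library 1 in EIF3C, which ranged from -0.20 to 0.32 as libraries were left out. The cause was not tested beyond the construction of these settings. Calls at high expression rest on more counts, so genes at a few CPM can be missed at this depth.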
